A study of Mus musculus with 18 samples.

Results

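The reads described here fell in 10 genes of the Notch pathway and its Tle corepressors: Tle5, Tle1, Tle3, Tle4, Notch1, Notch3, Nrarp, Hes1, Rbpj and Dtx1. They were chosen by name out of 49997 genes of a RefSeq table of assembly GRCm38.p6, and a chimeric read was assigned to a gene when it lay inside the gene's span on the gene's strand. Together they held 2463 of 1190995 chimeric reads. Tle5 alone held 1499 of these, or 0.126% of all reads. Notch1 held 352, Tle4 244, Rbpj 156, Tle3 126, Tle1 and Notch3 34 each, Dtx1 15 and Nrarp 3. Hes1 had no read in 12 libraries. A limit of 3 reads corresponds to 2.52 reads per 1000000 chimeric reads (rpm) with all libraries pooled, and to 4.05 to 78.4 rpm within single groups. The opposite strand of the 10 spans held 7 reads in all.

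Notch receptors are cut on contact with a ligand on a neighbouring cell, and the released intracellular domain joins the DNA-binding protein Rbpj to switch on genes such as Hes1, Nrarp and Dtx1. In the thymus this signal commits progenitors to the T cell lineage and is needed until the pre-T cell receptor has been made. Groucho/Tle proteins are corepressors without DNA binding of their own, which act at Hes proteins, Tcf7, Lef1 and Runx factors. Tle5, also called Aes, is a short family member that lacks the carboxy-terminal repeats of the long ones and can act against them.

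The study mapped microRNA (miRNA) targets in total thymocytes by miR-eCLIP. Cells were irradiated at 254 nm to fix RNA to Argonaute 2 (Ago2), which loads miRNAs and binds their targets. After immunoprecipitation (IP) of Ago2, a miRNA and the target fragment beside it are joined into 1 molecule, so that each sequenced chimera names a miRNA and a place in the genome. Mice were 6 weeks old and kept pathogen-free; the wild type (WT) was C57BL/6, and the knockout (KO) was labelled B6.Mirc14tm1.1Ankr, an allele lacking the miR-181a/b-1 cluster. That cluster is 1 of several miR-181 loci, and the other copies remain in KO. Ago2 IP libraries (3 WT, 3 KO) and libraries further enriched for miR-181-5p (3 WT, 3 KO) were compared, and 6 input samples were not analysed here. The labels do not say that replicates were separate animals, so p-values measure the spread between these samples only, which may be technical.

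WT Ago2 IP libraries held 43983 to 117849 chimeric reads and KO ones 52100 to 67639. Enriched libraries held 194628 to 293149 reads in WT but 6832 to 19264 in KO, where 3 reads correspond to 156 to 439 rpm. miR-181 chimeras made up 31.1% ± 1.09 of Ago2 IP reads in WT and 1.38% ± 0.0598 in KO (SD, n = 3 each). They made up 99.0% ± 0.210 and 71.9% ± 1.24 of the enriched reads. All 12 thymocyte markers examined had reads, with summed levels of 11660 to 14110 rpm in the WT Ago2 IP. All 4 B cell, 3 dendritic and 4 erythroid markers also had reads, and of 4 myeloid markers only Cd68 was at 0. In the WT Ago2 IP their sums reached at most 25.5 (B cell), 22.7 (dendritic), 101 (erythroid) and 25.5 rpm (myeloid). Of 5 thymic epithelial markers, 4 were at 0.

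The miRNAs that carried most of the 10 genes' reads fall into a few seed groups, and their mature sequences are shown to make these groups visible. The sequences are those of RefSeq (GRCm38.p6), written 5′ to 3′ with the seed, bases 2 to 8, in capitals. The 4 miR-181 members share their seed, whereas miR-142a-3p, the miR-17 group and let-7 each have another.
miR-181a-5p: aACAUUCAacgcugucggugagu
miR-181b-5p: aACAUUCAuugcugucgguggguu
miR-181c-5p: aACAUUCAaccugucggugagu
miR-181d-5p: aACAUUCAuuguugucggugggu
miR-142a-3p: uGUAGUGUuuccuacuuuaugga
miR-17-5p: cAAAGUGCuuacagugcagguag
let-7a-5p: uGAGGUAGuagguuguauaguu
The mature miR-181a-5p listed at chr1:137966468-137966490 and miR-181b-5p at chr1:137966650-137966673, both on the plus strand, belong to the cluster deleted in KO. These 2 share their first 8 bases, and miR-181b-5p and miR-181d-5p share their first 11. Of 53 miRNA names seen in the genes' Ago2 IP reads, 44 matched the RefSeq table, and these accounted for 648 of 661 reads.

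In the WT Ago2 IP, 68.3% of the 489 reads in the 10 genes carried the miR-181 seed, beside a library mean of 31.1% of all chimeric reads. miR-142a-3p, abundant in blood cells, carried 13.5%, the miR-17 seed 5.73% and the let-7 seed 3.27%. In KO, miR-142a-3p led with 39.5% of 172 reads, followed by the miR-17 seed with 17.4% and let-7 with 14.5%. The miR-181 seed was left with 5.23%, or 9 reads, 5 of them in Tle5, beside 1.38% of all chimeric reads. Over all chimeric reads, inside genes or not, WT Ago2 IP reads were 27.6% ± 0.744 miR-142a-3p, 10.1% ± 0.289 miR-17 seed and 11.65% ± 0.112 let-7 seed (SD, n = 3). KO Ago2 IP reads were 39.6% ± 1.04 miR-142a-3p, 14.3% ± 0.465 miR-17 seed and 16.4% ± 0.740 let-7 seed (SD, n = 3). Tle5 gave 317 of the 489 WT reads, so the shares of the 10 genes in WT are mainly its own. Without Tle5, 65 of the other 9 genes' 172 WT reads were miR-181 chimeras, a share of 37.8% with a 95% Wilson interval from 30.9% to 45.2%, beside 31.1% of all chimeric reads. In KO, 4 of their 139 reads were, or 2.88% with an interval from 1.125% to 7.165%, which includes the 1.38% of all chimeric reads.

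Tle5 carried far more chimeric reads than any other gene of the group. It lies at chr10:81559444-81566371 (GRCm38), and its reads were on the plus strand. WT Ago2 IP libraries held 179, 81 and 57 Tle5 reads, which were 1519, 1173 and 1296 rpm. KO libraries held 11, 16 and 6 reads, or 115 to 237 rpm. Every WT library lay above every KO library; this was so, in either direction, for 25.9% of genes tested. In WT, 84.9% of Tle5 reads (269 of 317; 95% Wilson interval 80.5% to 88.4%) were miR-181 chimeras, and in KO 15.2% (5 of 33; 6.65% to 30.9%) were. With identical reads counted once, the WT share was 68.75% and the KO share 15.6%. Wilson intervals and floors cover counting error only, because repeated reads need not be independent molecules.

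Tle5 fell in the KO Ago2 IP, with a log2 fold change of -2.90 (7.48-fold lower, SE 0.24, edgeR quasi-likelihood test with Benjamini-Hochberg adjustment, adjusted p = 4.87e-15). It ranked 3 by p among 1615 genes tested, of which 10.2% were called in either direction and 6.75% were lower. Of the 10 genes, 4 passed the count filter here (Tle5, Tle4, Notch1 and Rbpj), and 1 was called. The change came with the miR-181 chimeras. These averaged 1132 ± 160 rpm in WT and 26.7 ± 15.4 in KO (SD, n = 3), and had a log2 fold change of -5.30 when fitted alone (SE 0.45). The median gene in that fit, of 207 tested, stood at -4.52, and 206 were called. KO lacks the miR-181a/b-1 cluster, and Tle5 passed the filter of this fit through its WT reads. A fall was thus fixed in advance, and the fit describes its size only.

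Tle5 reads with other miRNAs stood at 197 ± 35.3 rpm in WT and 151 ± 49.5 in KO (SD, n = 3), and the libraries overlapped. Their fitted log2 difference was -0.44 with a 95% interval from -1.13 to 0.25 (edgeR adjusted p = 0.318). The median over 1309 genes in that fit was 0.49. Because the values are shares of a library, the loss of miR-181 chimeras raises the share of the others. In bulk samples, fewer cells of a type and less RNA per cell cannot be told apart, and the level of the Tle5 transcript itself was not analysed here. A list of stromal and endothelial markers moved with genotype in the Ago2 IP, with summed levels of 246 to 305 rpm in WT and 378 to 458 in KO. Col1a1, Col1a2 and Pdgfra of that list were at 0, Cdh5 was at 0 in both Ago2 IP groups, and Pecam1 held 221 of the reads. The Ago2 IP sums were thus those of Pecam1 alone, with means of 267 rpm in WT and 426 in KO. The list's part in the Tle5 result was not tested.

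**Figure D1:**
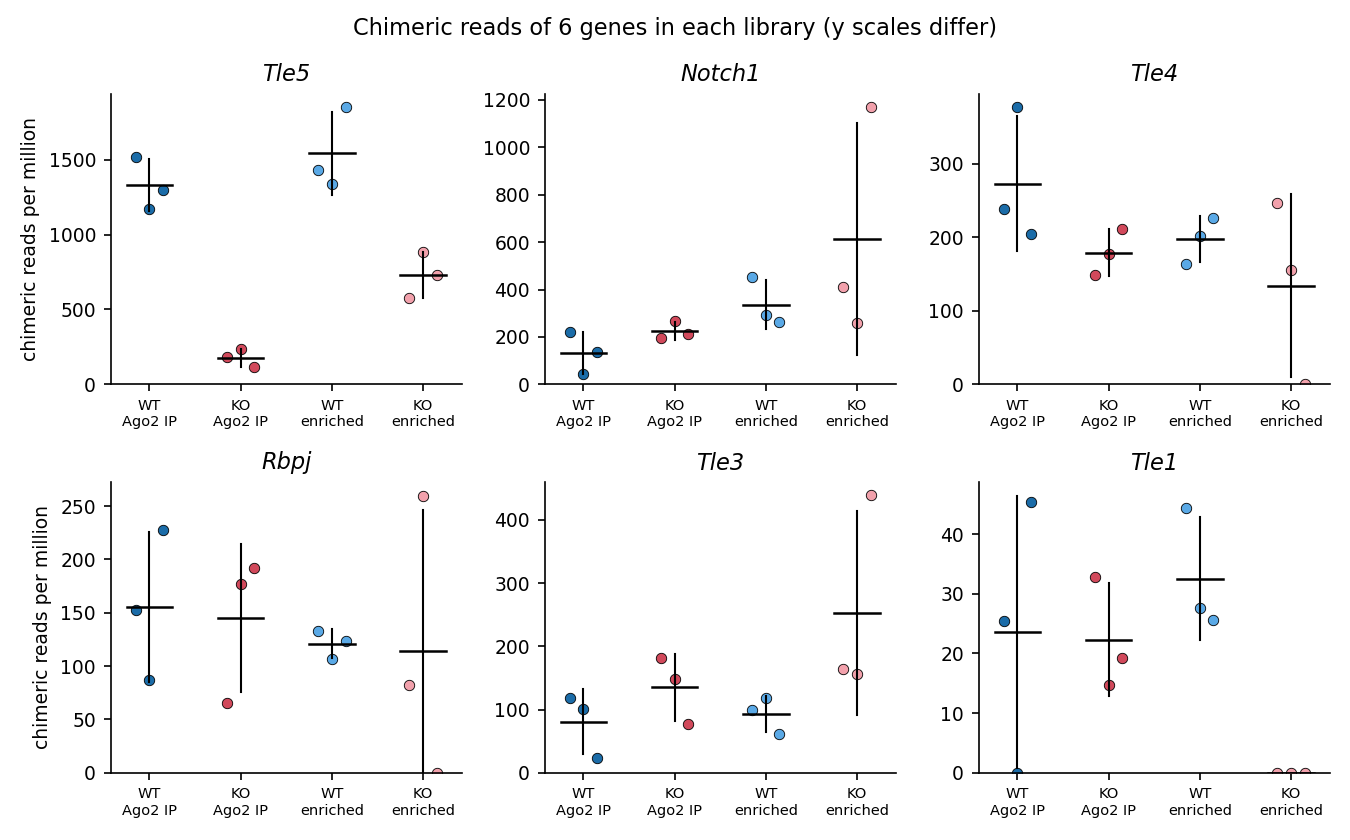
Chimeric reads of 6 genes in rpm, 1 point per library, with group means (horizontal lines) and SD (vertical lines, cut at 0), n = 3 libraries per group; WT is wild type and KO is knockout. Tle5 reached 1173 to 1519 in the WT Ago2 IP and 115 to 237 in KO, whereas the Ago2 IP groups overlapped for the other 5 genes.

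The Tle5 reads were concentrated at 1 place. A stretch of 20 nt, chr10:81565889-81565908, held 1346 of them, or 89.8%, at a median of 473 nt from the 3′ end of the gene span. With identical reads counted once, it held 231 of 375 Tle5 reads, or 61.6%. Among 116 genes with at least 1000 reads, all reads counted, the best 20 nt held a median of 11.5% of a gene's reads. By that count 6 genes, Tle5 included, reached 89.8% or more. Nearly all Tle5 reads, 99.3%, lay in the last 3000 nt of the span. Exon and UTR borders were not used here. In the WT Ago2 IP, 252 of 269 miR-181 chimeras lay inside the stretch (93.7%, Wilson interval 90.1% to 96.0%), as did 14 of 27 miR-142a-3p chimeras (51.9%, 34.0% to 69.3%) and 6 of 21 with other miRNAs (28.6%, 13.8% to 49.96%). The stretch was chosen as the 20 nt with most Tle5 reads over all libraries, most of them miR-181 chimeras, so these shares are a description and the order of the classes was partly fixed by that choice.

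**Figure D2:**
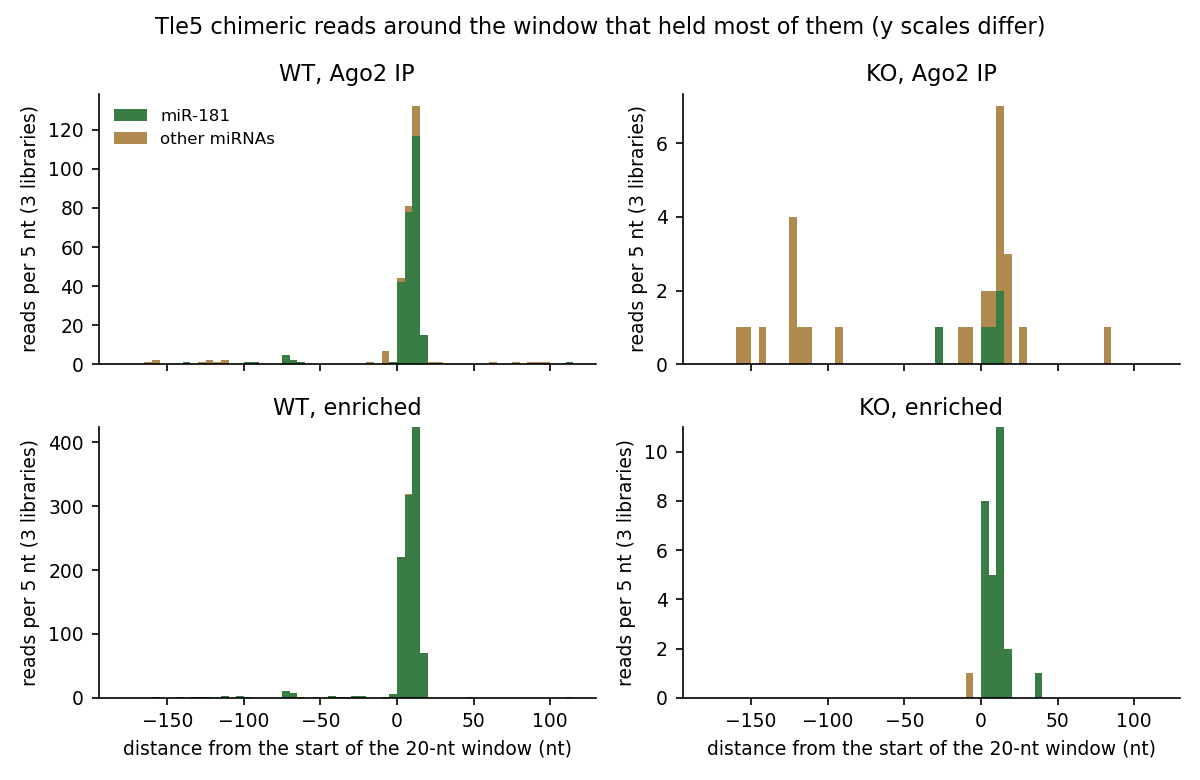
Tle5 chimeric reads in bins of 5 nt, summed over 3 libraries per group, against the distance from the start of the 20-nt stretch, with miR-181 chimeras in green and other miRNAs in brown; the y scales differ. The WT Ago2 IP and both enriched groups peaked inside the stretch, while the KO Ago2 IP held 33 reads over the whole gene.

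Joined over neighbouring positions, the reads made a site at chr10:81565727-81565999 with 1456 reads. It was the only site of the 10 genes with at least 3 reads in every library of all 4 groups. WT Ago2 IP libraries held 171, 81 and 57 of its reads and KO libraries 10, 13 and 6. The genotypes did not overlap here, as was so for 50.2% of sites tested. The site fell, with a log2 fold change of -3.16 (SE 0.26; adjusted p = 2.63e-22 by edgeR over 251 sites, of which 36.3% were called and 25.5% were lower).

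In the enriched libraries, Tle5 had reads in every library of both genotypes. WT held 420, 339 and 361 reads, or 1433, 1337 and 1855 rpm, and 1119 of 1120 were miR-181 chimeras. KO held 7, 17 and 5 reads, or 574, 883 and 732 rpm, and 28 of 29 were miR-181 chimeras. Every KO library lay below every WT one, and groups did not overlap for 28.5% of genes tested. Tle5 fell, with a log2 fold change of -1.31 (SE 0.27; adjusted p = 0.00138 by edgeR), in a comparison that called 5.5% of 2146 genes and found 3.4% lower. Without KO enriched library 2 the Tle5 value was -1.98. Tle3, Tle4, Notch1 and Rbpj also passed the filter here and were not called. Of the genes called, 45 were higher and 73 lower. With library sizes alone in place of TMM factors this split was 75 and 34, the median of all genes moved by 0.29, and Tle5 stood at -1.03. The joined Tle5 site also fell in the enriched libraries, with a log2 fold change of -1.17 (SE 0.31; adjusted p = 0.00574 by edgeR over 805 sites, 16.4% called and 8.7% lower), and values of -1.045 with library sizes alone and -2.05 without KO enriched library 2.

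The enriched difference turned when identical reads were counted once. Of the 1120 WT enriched Tle5 reads, only 190 differed in position or miRNA, and over all libraries 74.98% of Tle5 reads repeated another read of their library. The 20-nt stretch and 4 miR-181 names allow at most 80 distinct reads per library. Of the 1119 WT enriched miR-181 chimeras of Tle5, 875 were miR-181a-5p and 235 miR-181b-5p, so the limit in practice was lower. WT enriched libraries held 39, 33 and 36 distinct miR-181 reads there against 398, 309 and 326 in all. KO enriched libraries held 6, 12 and 4 distinct against 7, 14 and 5 in all. Counting once thus lowered mainly the deep WT enriched counts. Counted once, Tle5 stood at 380 ± 91.7 rpm over distinct reads in WT and 666 ± 162 in KO (SD, n = 3), a log2 difference of 0.90 (edgeR adjusted p = 0.102). In the Ago2 IP, WT kept the higher level, at 597 ± 76.1 against 178 ± 63.5, and the log2 fold change was -1.68 (edgeR adjusted p = 3.03e-07).

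**Figure D3:**
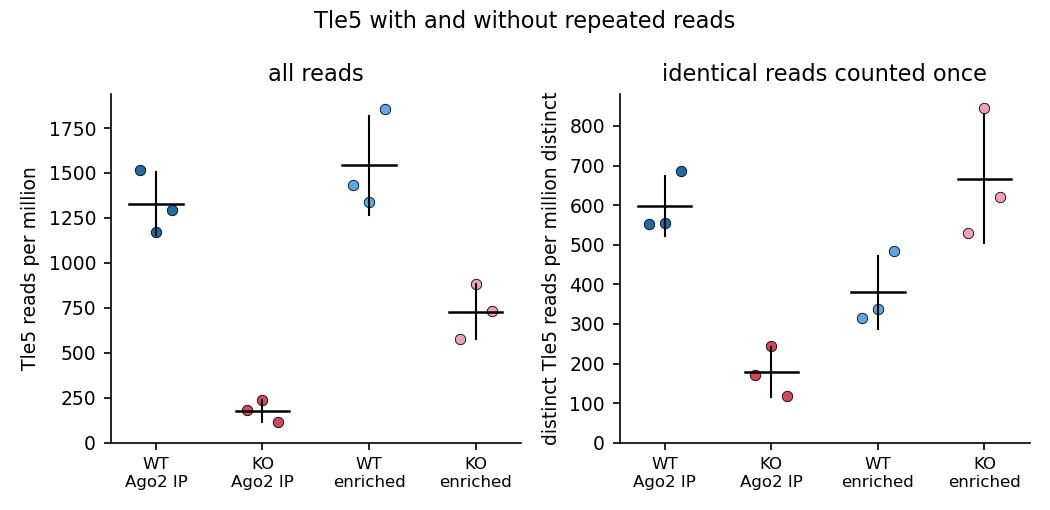
Tle5 level in each library with all reads (left, rpm) and with reads of the same position, strand and miRNA counted once (right, rpm over distinct reads), 1 point per library with mean and SD, n = 3. The Ago2 IP groups kept their order on both sides, and the enriched groups changed order.

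The KO effect on Tle5 was smaller in the enriched libraries than in the Ago2 IP, by a log2 value of 1.40 (SE 0.41, edgeR adjusted p = 0.0454). That comparison called 2.47% of 2067 genes, 2.03% as higher; with library sizes alone the split of 42 higher and 9 lower genes became 82 and 3, the median moved by 0.45 and Tle5 stood at 1.85. The call was lost without WT Ago2 IP library 1 (adjusted p = 0.146) or 3 (0.0506), KO Ago2 IP library 1 (0.1105) or 3 (0.202), or KO enriched library 2 (0.399) or 3 (0.0719), and with no count filter (0.680), all by edgeR. With identical reads counted once the difference was 2.51 (edgeR adjusted p = 4.10e-06). Among the enriched libraries, counting once lowered mainly the deep WT counts, which limits this value. With miR-181 chimeras alone the difference was 3.76, beside a median of 3.53 over 1177 genes, of which 852 were called. Tle3, Tle4, Notch1 and Rbpj were tested for this difference with all reads and not called, at 0.13, -0.14, -0.59 and -0.06. Enrichment moved Tle5 in KO up by 2.20 (SE 0.40, edgeR adjusted p = 1.16e-06), where 21.4% of 828 genes were called and 15.6% were higher (129 against 48 lower, or 122 against 103 when scaled by library size only, which moved the median by -0.17). With miR-181 chimeras alone this KO value was 4.73 for Tle5, beside a median of 5.63 over 222 genes. No other of the 10 genes passed the count filter there. In WT it was higher by 0.55 (SE 0.15, edgeR adjusted p = 0.00341), where 36.1% of 3144 genes were called and 19.3% were higher (606 against 528 lower; 389 against 1063 when scaled by library size only, which moved the median by -0.36). This WT difference was 0.19 with library sizes alone (adjusted p = 0.310) and -0.64 with identical reads counted once (adjusted p = 0.00387), so its direction is not settled by these data.

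The long corepressors Tle1, Tle3 and Tle4 held few, scattered reads. Tle4 (chr19:14448072-14598183, minus strand) had 28, 26 and 9 reads in the WT Ago2 IP, or 238, 376 and 205 rpm, and 9, 12 and 11 in KO, or 148, 177 and 211 rpm. The groups overlapped, and the log2 difference was -0.65 (95% interval -1.26 to -0.03, edgeR adjusted p = 0.207), or -0.40 without WT library 2. Its miR-181 chimeras were 9, 15 and 3 of the WT reads against 0, 2 and 0 of KO reads. Chimeras of other miRNAs stood at 152 ± 13.8 and 169 ± 36.5 rpm (SD, n = 3). Tle4 reads made 140 sites, 112 of them with a single read, and the largest, chr19:14449189-14449265 with 14 reads, all miR-181 chimeras, lay 1143 nt from the 3′ end of the span. Of Tle4 reads, 25.4% lay in the last 3000 nt of its span of 150112 nt. For Tle5, with a span of only 6928 nt, this was 99.3%, so the 2 shares are not alike. Over 1760 protein-coding genes longer than 30000 nt with at least 100 reads, the median was 10.6% (quartiles 3.74% and 25.75%).

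Tle3 (chr9:61372326-61418497, plus strand) had 14, 7 and 1 reads in the WT Ago2 IP and 11, 10 and 4 in KO, and did not pass the count filter there. Only 3 of the 22 WT reads were miR-181 chimeras, and none of the 25 KO reads were; miR-142a-3p held 9 and 14. In the enriched libraries it had 29, 30 and 12 reads in WT and 2, 3 and 3 in KO, with a log2 difference of 0.84 that was not called (edgeR, 95% interval in the forest plot of fitted differences) and was 0.24 without KO library 3 and 0.23 with no count filter. A site of 9 nt at chr9:61409066-61409074, 9429 nt from the span's 3′ end, held 20 reads, 17 of them in the WT enriched libraries (8, 5 and 4), and all were miR-181 chimeras. Tle3 had a higher share of miR-181b-5p than all reads had: 25 of 70 miR-181a and b chimeras in the WT enriched libraries, or 35.3% ± 2.39 per library (pooled Wilson interval 25.5% to 47.4%), against 18.7% ± 1.53 over all reads (SD, n = 3). This share was 21.3% ± 4.27 for Tle5, 22.5% ± 7.10 for Rbpj, 14.5% ± 10.3 for Tle4 and 14.9% ± 6.39 for Notch1 (SD, n = 3). For Notch3 it was 5 of 17 reads, or 29.4% with a Wilson interval from 13.3% to 53.1%.

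Tle1 (chr4:72109945-72200989, minus strand) had 13, 7 and 5 reads in the WT enriched libraries, all 25 of them miR-181a-5p chimeras, for which a miR-181b share of up to 13.3% is within the Wilson interval. It had no read in the KO enriched libraries, where 3 reads over the group would be 78.4 rpm, above the WT mean of 32.6. None of its 34 reads lay in the last 3000 nt of the span.

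Among the receptors, Notch1, which carries the signal at the start of T cell development, was the second most covered gene of the 10. It lies at chr2:26457902-26503822 on the minus strand. WT Ago2 IP libraries held 26, 3 and 6 reads, or 221, 43.4 and 136 rpm, and KO libraries 12, 18 and 11, or 197, 266 and 211. The ranges overlapped, and the log2 difference of 0.57 was not called (SE 0.37, edgeR adjusted p = 0.382). It was 1.45 without WT library 1 (edgeR adjusted p = 0.0633) and 0.16 without WT library 2. Within it, miR-181 chimeras were 8, 2 and 3 reads in WT and 1, 0 and 0 in KO. Chimeras of other miRNAs were at 78.5 ± 69.7 rpm in WT and 219 ± 43.2 in KO (SD, n = 3), higher by 1.19 when fitted alone (SE 0.40, edgeR adjusted p = 0.0185). The median gene of that fit stood at 0.49 and 394 of 1309 were called. Leading miRNAs on Notch1 in KO were miR-142a-3p with 13 of 41 reads and let-7a-5p and miR-20a-5p with 4 each.

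**Figure D4:**
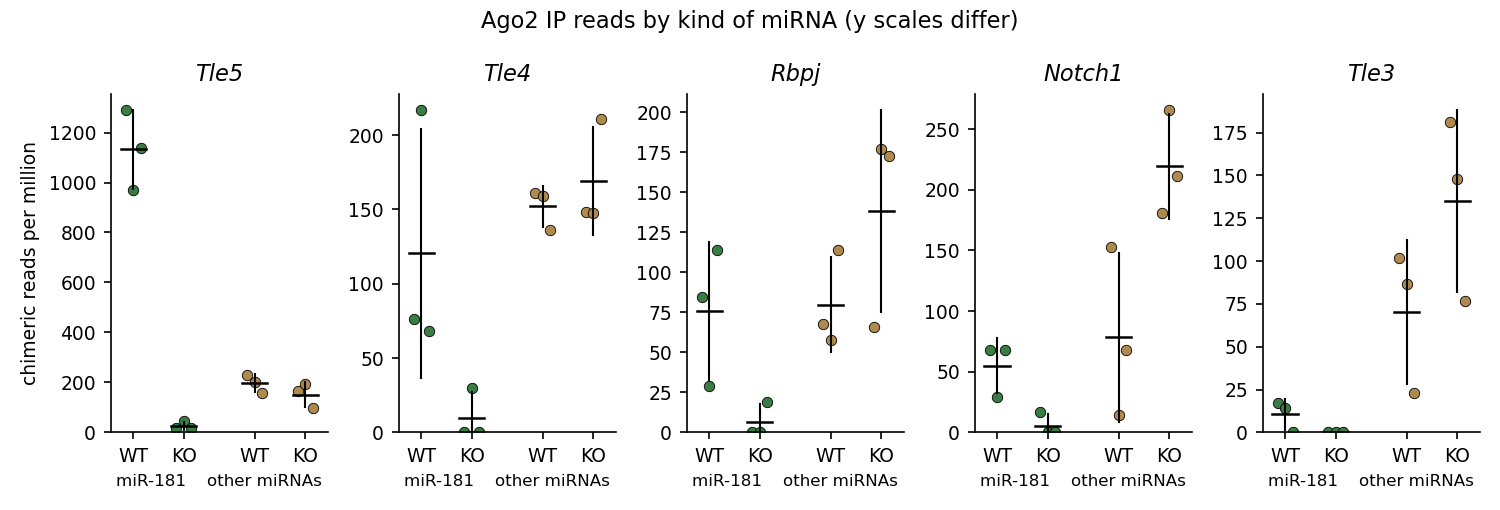
Ago2 IP rpm split into miR-181 chimeras (green) and chimeras of other miRNAs (brown) for 5 genes, 1 point per library with mean and SD (cut at 0), n = 3 per genotype; the y scales differ. miR-181 chimeras of Tle5 averaged 1132 in WT and 26.7 in KO, and those of Tle4 120.6 and 9.86, while reads with other miRNAs did not fall in this way.

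Enrichment raised Notch1 in WT to 133, 74 and 51 reads, or 454, 292 and 262 rpm, above all 3 Ago2 IP libraries, and groups did not overlap for 53.4% of genes tested. It was higher by a log2 value of 1.56 (SE 0.30, edgeR adjusted p = 5.55e-05), and Notch1 and Tle5 were the 2 of 5 tested genes called there, beside the 36.1% of all genes. Tle3 (0.37), Tle4 (-0.14) and Rbpj (0.08) were not called. Leaving out 1 library moved the Notch1 value between 1.22 (without WT Ago2 IP library 2) and 2.46 (without WT Ago2 IP library 1), and it was called each time. Of these 258 reads, 256 were miR-181 chimeras. Among miR-181 chimeras alone, Notch1 rose by 2.94, Tle4 by 1.07, Rbpj by 1.055 and Tle5 by 0.78, with a median of 1.76 over 2312 genes. KO enriched libraries held 5, 5 and 8 Notch1 reads, or 410, 260 and 1171 rpm, with a log2 difference from WT of 0.19 that turned to -0.60 without library 3, the smallest.

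Notch1 had 3 sites with at least 3 reads in each WT enriched library. The main one, chr2:26459997-26460243, held 153 reads at a median of 2263 nt from the 3′ end of the span, in WT enriched counts of 67, 38 and 29, all miR-181 chimeras. In the Ago2 IP it held 8 WT reads, 4 of them miR-181, and 7 KO reads, none of them miR-181; miR-142a-3p made 7 of these 15 reads. Its enriched log2 difference of -0.86 was not called (edgeR adjusted p = 0.485), beside the 16.4% of sites called, and lay between -1.98 and -0.55 when 1 KO library was left out. A neighbouring site, chr2:26460272-26460350, held 16 reads. The third, chr2:26477070-26477135, lay 19196 nt from the span's 3′ end and held 34 reads, 33 of them in the WT enriched libraries (22, 7 and 4). In all, 58.2% of Notch1 reads lay in the last 3000 nt, against a median of 10.6% (quartiles 3.74% and 25.75%) over 1760 protein-coding genes longer than 30000 nt with at least 100 reads.

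Notch3 (chr17:32120820-32166896, minus strand) had 7 reads in the WT Ago2 IP, 8 in KO, 18 in the WT enriched libraries and 1 in KO. Its 3 WT miR-181 chimeras in the Ago2 IP came from 1 library, and the largest pile held 3 reads at a single position. These counts do not allow a comparison between genotypes at this depth.

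Rbpj, the DNA-binding partner of all Notch receptors, lies at chr5:53555779-53657445 on the plus strand. WT Ago2 IP libraries held 18, 6 and 10 reads (153, 86.9 and 227 rpm) and KO libraries 4, 12 and 10 (65.8, 177 and 192 rpm). The groups overlapped and the log2 difference was -0.06 (95% interval -0.88 to 0.76, edgeR adjusted p = 0.957). The miR-181 part of its reads was 17 of 34 in WT (Wilson interval of the share 34.1% to 65.9%) and 1 of 26 in KO (3.85%, 0.682% to 18.9%). Chimeras of other miRNAs stood at 79.8 ± 29.75 and 139 ± 63.1 rpm (SD, n = 3). In KO, miR-142a-3p held 9 reads and miR-20a-5p 6. The largest Rbpj site, chr5:53617052-53617067, held 20 reads, 7 of them in the WT Ago2 IP and none in the KO Ago2 IP, all with miR-181; it was named after its values were seen. It also had 7, 2 and 3 reads in the WT enriched libraries. The only Rbpj site with at least 3 reads in each of those libraries, at chr5:53584139-53584139, was a single position with 14 reads that reduced to 3 distinct ones, and no other group had a read there. Of all Rbpj reads, 17.95% lay in the last 3000 nt.

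**Figure D5:**
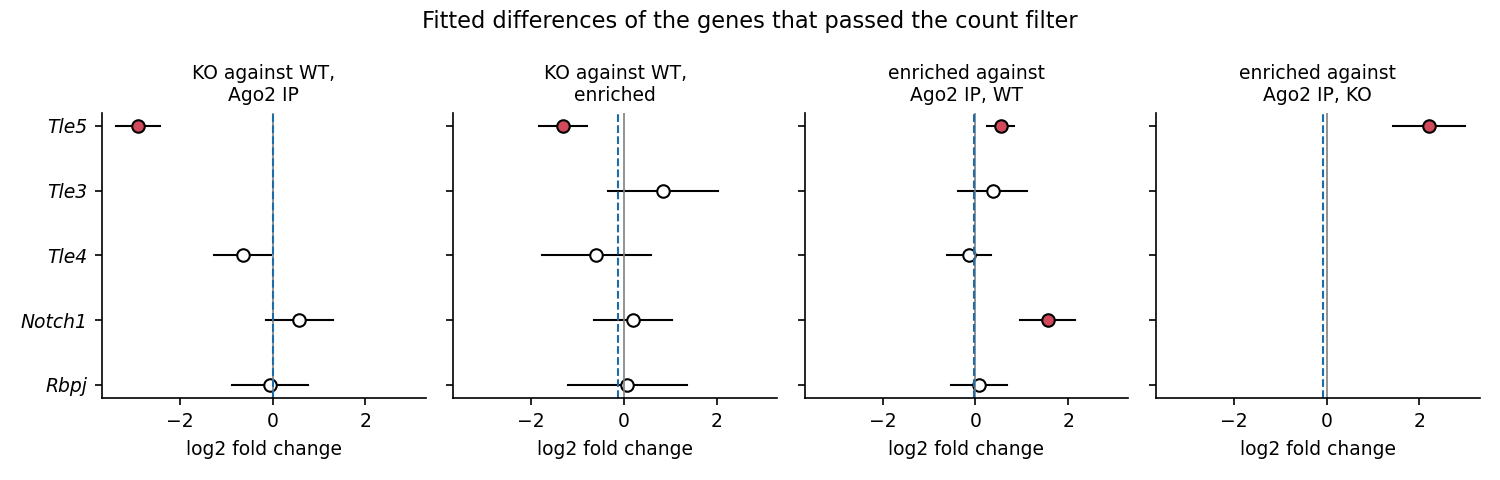
Log2 fold changes of the genes that passed the count filter in 4 comparisons, with 95% intervals; filled points were called at an adjusted p of at most 0.05, and the dashed line is the median of all genes tested. Tle5 was at -2.90 and -1.31 in the comparisons of KO with WT, and Tle5 (0.55) and Notch1 (1.56) were called as higher after enrichment in WT.

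Dtx1, Nrarp and Hes1, 3 Notch targets among the 10 genes, had few or no chimeric reads. Dtx1 (chr5:120680203-120711867, minus strand), a regulator of Notch signalling that is itself switched on by it, had 5 and 3 reads in the WT and KO Ago2 IP and 7 in the WT enriched libraries, all 7 with miR-181. Nrarp (chr2:25180758-25183339, plus strand), a feedback inhibitor of Notch, had 1 read with miR-142a-3p and 2 with miR-181a-5p, and Hes1, the repressor at chr16:30065357-30067796, had none. Hes1 was thus below 13.0 rpm in the WT Ago2 IP and below 4.05 in the WT enriched group, by the limit of 3 reads over a group. Summed over the 9 genes other than Tle5, Ago2 IP miR-181 chimeras were at 287 ± 41.0 rpm in WT and 21.7 ± 6.92 in KO (65 and 4 reads), and chimeras of other miRNAs were at 434 ± 115.5 and 746 ± 53.8 (SD, n = 3). Their total was 721 ± 81.5 in WT and 768 ± 60.3 in KO (SD, n = 3), and the ranges overlapped.

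Over the 12 libraries, the genes whose log2 levels followed Tle5 most closely were Golt1b (Pearson r = 0.975), Gm38396 (0.933), Tmcc3 (0.921), Vps28 (0.920) and Hspa8 (0.918), of 2066 ranked. All 12 points share library and depth, so the values are descriptions. Golt1b was also close in level, at 956 ± 96.4 rpm in the WT Ago2 IP and 80.6 ± 32.9 in KO. None of the other 4 tested members was near: Tle4, Rbpj, Notch1 and Tle3 ranked 734, 791, 884 and 1406, with r between -0.25 and 0.04.

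Of 66 other genes of the pathway (ligands, processing enzymes, coactivators, corepressors and T cell targets), 53 had a read. Dll1, Dll4 and Jag1, which code for ligands, were among the 13 without one. In the Ago2 IP, 1 of 18 tested genes was called between genotypes against a background of 10.2%, or 3.41% higher: Tcf7, the T cell factor induced by Notch, was higher in KO by 0.54 (SE 0.15, edgeR adjusted p = 0.0119), and DESeq2 did not call it. Its miR-181 share went from 24.3% of 251 reads to 1.37% of 293. Of the 18 genes, 3 had an unadjusted p under 0.05 by edgeR, Lef1 (-0.43, adjusted p = 0.0512) and Runx1 (0.35, adjusted p = 0.0686) besides Tcf7. With library sizes alone Runx1 had an edgeR adjusted p of 0.0470. DESeq2 called 0 of the 18. In the enriched libraries 0 of 18 were called by edgeR, 0 had an unadjusted p under 0.05 and DESeq2 called 0. Enrichment in KO called 0 of 12 and the difference of KO effects 0 of 20, each with 1 gene at an unadjusted p under 0.05 and none called by DESeq2. After enrichment in WT 6 of 25 were called by edgeR, against 36.1% of all genes, 9 had an unadjusted p under 0.05, and DESeq2 called 3. Spen, a corepressor that binds Rbpj, was higher by 1.49 (adjusted p = 2.29e-06) and Bcl11b by 0.45, a value of 0.09 with library sizes alone. Maml1, a coactivator, Adam10, a protease that cuts Notch, Ep300 and Fbxw7 were lower by edgeR, with log2 differences of -1.13, -0.76, -0.58 and -0.525.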

How the data were processed

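Chimeric reads of 12 miR-eCLIP libraries were analysed. The deposited files are read counts: each line is 1 chimeric read at a 1-nt position with its miRNA and strand, not scaled and not pooled. Per the submitters' processing notes, which give no roles, the builds mm10 and GRCm38.p6 and the tools Bowtie2 2.4.5, SAMtools 1.11, STAR 2.7.10, UMI-tools 1.1.1 and bedtools 2.30.0 were used. Reads inside a RefSeq GRCm38.p6 span on the gene's strand were counted. The strand came from the RefSeq promoter table for 8 genes and from the reads for Tle5. Hes1 had no strand in that table and no read on either strand, so plus was set by default. Sites joined reads at most 20 nt apart. Levels are reads per 1000000 chimeric reads of a library. Counts were compared with edgeR 4.0.16 in R 4.3.3 (quasi-likelihood test with TMM factors, Benjamini-Hochberg adjustment over all features, threshold 0.05) after filterByExpr at a minimum count of 10; each pairwise fit used its own groups and the difference of knockout effects used 12 libraries. An SE was computed as the fold change over the root of F. The fits were checked on simulated counts. There, genes without a change centred below 0 with TMM factors in the enriched genotype comparison (genes and sites) and in the difference of knockout effects, which hold the shallow knockout enriched libraries, so values with library sizes alone are given beside Tle5 in both. Alternatives were DESeq2 1.42.0, library sizes alone, no filter, identical reads once, miR-181 or other miRNAs alone, both strands, reads in exactly 1 gene, joining at 10 or 50 nt, a replicate block and each library left out. Those of the 10 genes that passed the count filter are named in every comparison, and pathway genes where called. Sites are named with at least 3 reads in every library of a group or as the largest of a gene. Members and lists were chosen with earlier results of these data known. Depth per library ranged from 6832 to 293149 reads. Whether equal replicate numbers mark paired samples is not known, and the main fits did not pair them.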

Additional observations from a re-analysis of the deposited data

Results flagged for a closer look

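The knockout effect on Tle5 differed between the 2 kinds of library, with an interaction term of 1.40 on the log2 scale (edgeR adjusted p = 0.0454, 1.398 to 4 digits). Tle5 was at -2.90 in the Ago2 IP and at -1.31 in the enriched libraries, and the enriched value became 0.90 with identical reads counted once. With identical reads counted once the difference was 2.51 (edgeR adjusted p = 4.10e-06). Among the enriched libraries, counting once lowered mainly the deep wild-type counts, which limits both of these values. With miR-181 chimeras alone the difference was 3.76 for Tle5, beside a median of 3.53 over 1177 genes. With all reads, the call was lost without any 1 of 6 libraries.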

How the results depend on the processing

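Of 296 alternative values for the genes, sites and shares named, 254 kept their direction and side of the threshold, or moved by less than the spread; 21 turned, 10 lost a call, 4 gained one and 7 moved. DESeq2 called 58 genes between genotypes in the Ago2 IP (5 higher and 53 lower, against 55 and 109 with edgeR), 72 in the enriched libraries and 684 for enrichment in the wild type. Without a filter the enriched genotype comparison called 282 genes, the difference of knockout effects 18, and the genotype comparisons of sites 206 (Ago2 IP) and 1093 (enriched). miR-181 chimeras alone gave 223 genes between genotypes in the enriched libraries, 2253 for enrichment in the wild type and 852 for the difference of effects. Other miRNAs alone gave 394 in the Ago2 IP, 1754 and 463 for enrichment in the wild type and the knockout, and 918 for the difference of effects. Library sizes alone gave 85 for that difference. Leaving out 1 library gave 71 to 122 genes (enriched genotypes), 24 to 51 (difference of effects) and 57 to 152 sites (enriched).

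With identical reads counted once, Tle5 turned in the enriched genotype comparison (0.90; its site 0.73) and in wild-type enrichment (-0.64), and Rbpj gave 0.011 between Ago2 IP genotypes and -0.00067 for wild-type enrichment. With other miRNAs alone, Tle4 gave 0.070 between Ago2 IP genotypes and Tle5 -6.29 for wild-type enrichment. Between enriched genotypes, no filter gave Notch1 -0.44 and Rbpj -0.54, miR-181 alone Rbpj -0.17, and knockout libraries 2 and 3 as 1 sample Rbpj -0.016. For wild-type enrichment, library sizes alone gave Rbpj -0.28, no filter Tle4 0.061 and miR-181 alone Tle4 1.07. Leaving out 1 library gave Rbpj -0.33 to 0.28 (Ago2 IP genotypes), -1.89 to 0.15 (enriched genotypes) and -0.12 to 0.31 (wild-type enrichment), Notch1 -0.60 to 0.29 (enriched genotypes) and Tle4 -0.28 to 0.18 (wild-type enrichment). The Notch1 site at chr2:26459997-26460243 was called without a filter (-2.99, edgeR adjusted p = 8.43e-05). The cause of these changes was not tested.

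A replicate block gave Tle5 -2.88 in the Ago2 IP and 129 called genes, and changed no call of the 10 genes or of the Tle5 and Notch1 sites fitted, in the comparisons where they passed the filter (it was not fitted for the other pathway genes). Same-numbered libraries correlated at -0.09 to 0.12. At these counts such correlations cannot exclude that equal numbers share a sample. The 6832 to 19264 reads of the knockout enriched libraries limit every comparison with them.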
